A study of Mus musculus with 4 samples.

Results

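The 10 cytochrome P450 genes described here are 3 of the Cyp2b subfamily (Cyp2b9, Cyp2b10 and Cyp2b13) and 7 of the Cyp2c subfamily (Cyp2c29, Cyp2c37, Cyp2c38, Cyp2c39, Cyp2c54, Cyp2c55 and Cyp2c70), measured in livers of mice with and without the phospholipase gene Pnpla7. They were chosen by gene name, as cytochromes linked to the receptor CAR, and selected on their signals and KO over WT ratios at 3 and 6 weeks, which were already known. They are 10 of the 30026 genes read on the array. Their signals therefore describe these arrays and were put to no test. The 10 genes are covered by 14 probes in 23 spots: 7 genes have 1 probe, and Cyp2c37, Cyp2c38 and Cyp2c54 have more.

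The groups were livers of Pnpla7-/- mice (KO) at 6 weeks, Pnpla7+/+ mice (WT) at 6 weeks, KO at 3 weeks and WT at 3 weeks, all of the C57BL/6N strain. Each group is 1 pool of RNA from 5 livers on 1 single-colour array, so no difference has a replicate check and no p-value is given. The labels name no treatment, and the animals' sex, the time of day and the way the knockout was made are not stated in the sources used here. The signal of a probe is its processed intensity divided by the 75th percentile of its array, and a gene with several probes was read on the brightest. Genes are counted as changed at 2-fold.

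CAR (Nr1i3) is a nuclear receptor of the hepatocyte that pairs with a retinoid X receptor and switches on genes for the disposal of foreign compounds, steroids, bile acids and bilirubin. Cyp2b10 is its best known target in the mouse, and several Cyp2c genes are induced through CAR or its relative PXR (Nr1i2). The proteins are monooxygenases of the endoplasmic reticulum, fed with electrons by the reductase Por and dependent on heme, whose synthesis starts with Alas1. Cyp2b9 and Cyp2b13 are also known as genes of the adult female liver, where growth hormone patterns set their level.

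Across the arrays, 28714 to 30697 of 43020 spots were well above background, none was saturated, and none of the spread between pools was measured. The spread between spots of 1 probe alone corresponds to an SD of a log2 KO over WT ratio of 0.118 (6 weeks) or 0.0952 (3 weeks), called the spot SD below. The KO array at 6 weeks was the noisiest. Its median log2 SD between spots was 0.0989, against 0.0645 to 0.0697 on the others. The CV of its spike-in controls was 11.1%, against 4.32% to 4.77%. All KO over WT ratios at 6 weeks, the age changes in KO and the differences between ages use that array. The Pnpla7 probe read 4.42 in KO and 9.65 in WT at 6 weeks, and 6.7 in KO and 7.54 in WT at 3 weeks. Which stretch was deleted is not stated in the sources used here, so this probe does not check the genotype, and the directions below rest on the labels. All 20 hepatocyte markers were well above background on every array, with a summed signal of 4064 in KO and 3606 in WT at 6 weeks and 3481 in KO and 3589 in WT at 3 weeks. Skeletal muscle markers summed to 72.2 in KO and 4.74 in WT at 6 weeks and to 98.8 in KO and 3.49 in WT at 3 weeks, with 33, 24, 33 and 16 of 33 well above background on those arrays. Their part in the results below was not tested.

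All 14 probes were well above background on every array. At 3 weeks, 4 of the 10 genes were at least 2-fold lower in KO than in WT (2.9% of 21757 genes were), and none was 2-fold higher (2.86% of all genes). The 4 were Cyp2b9, Cyp2b10, Cyp2b13 and Cyp2c55. At 6 weeks, 1 gene was at least 2-fold lower (4.54% of 21384 genes), Cyp2c55, and again none was 2-fold higher on its brightest probe (6.49% of all genes). The median log2 ratio of the 10 genes was -0.37 at 3 weeks, against 0.0 for all genes, and 0.14 at 6 weeks, against 0.05. The 10 genes thus did not move as 1 group. The Cyp2b genes were past 2-fold lower in KO at 3 weeks and inside 2-fold at 6 weeks. On their brightest probes, Cyp2c37, Cyp2c39 and Cyp2c54 were 1.7-fold to 1.97-fold higher at 6 weeks. Cyp2c55 was low at both ages, and Cyp2c29, Cyp2c70 and the brighter Cyp2c38 probe were within 1.28-fold of WT at both ages.

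**Figure D1:**
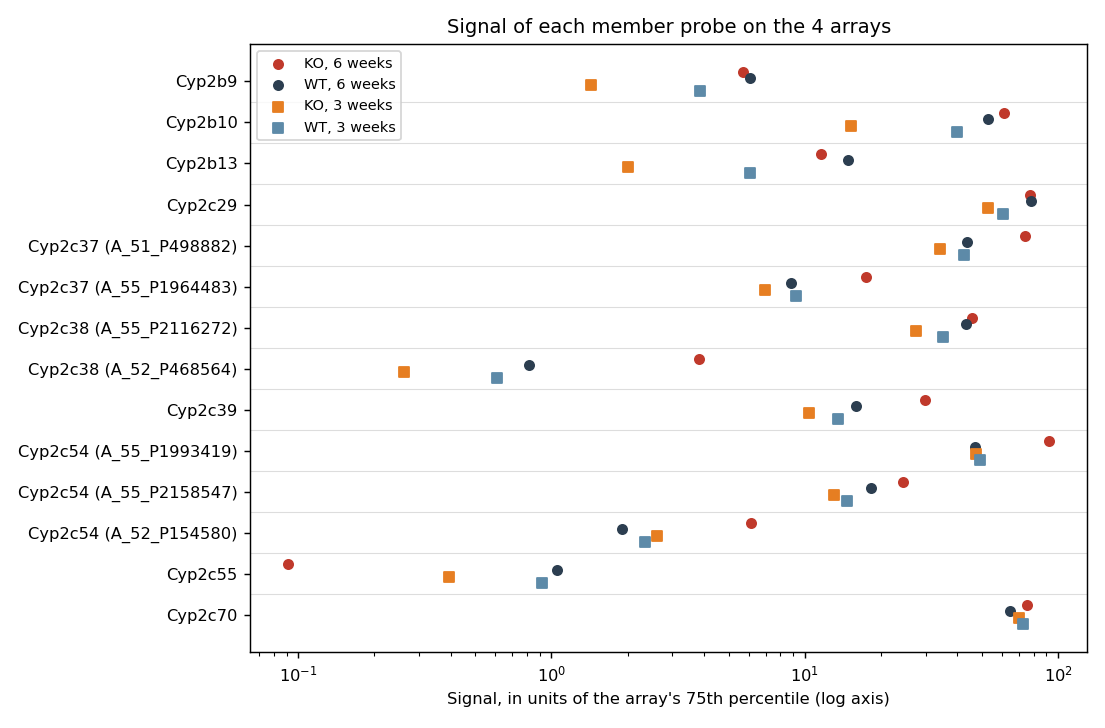
Signal of each of the 14 probes on the 4 arrays, as a multiple of the array's 75th percentile on a log axis, 1 point per pool of 5 livers. The KO array at 3 weeks is the lowest for the 3 Cyp2b genes, at 1.43, 15.2 and 2.0, and the KO array at 6 weeks is the lowest for Cyp2c55, at 0.0914.

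The 3 Cyp2b genes lie side by side on chromosome 7. Cyp2b10, the gene most used as a readout of CAR, had a signal of 61.2 in KO and 52.9 in WT at 6 weeks, and of 15.2 in KO and 39.9 in WT at 3 weeks. The KO pool at 3 weeks stood apart below the other 3 arrays. It was 2.62-fold lower than WT at that age (log2 ratio -1.39), while at 6 weeks KO and WT differed by 1.16-fold (log2 ratio 0.21, and -0.01 after quantile normalization). Cyp2b9, a steroid hydroxylase of the female liver, read 5.69 in KO and 6.1 in WT at 6 weeks, and 1.43 in KO and 3.87 in WT at 3 weeks. Again the KO pool at 3 weeks was the low one, 2.7-fold below WT (log2 ratio -1.43), and the pools at 6 weeks differed by less than the spot SD (log2 ratio -0.10). Cyp2b13, its close relative, read 11.6 in KO and 14.8 in WT at 6 weeks, and 2.0 in KO and 6.07 in WT at 3 weeks. Its ratio was 3.03-fold lower in KO at 3 weeks (log2 -1.60) and 1.27-fold lower at 6 weeks (log2 -0.35) and so stayed below WT at 6 weeks by more than the spot SD. Under quantile normalization and hepatocyte marker scaling the ratios at 6 weeks were -0.42 and -0.60 for Cyp2b13 and -0.14 and -0.35 for Cyp2b9. Of the 18870 genes well above background on all arrays, 69 had a lower ratio at 3 weeks than Cyp2b13, 98 a lower one than Cyp2b9 and 105 a lower one than Cyp2b10.

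The region upstream of the start site is shown for the 3 Cyp2b genes because they moved together. Whether their probes also bind each other's transcripts was not tested. The windows are the 250 bases before the start on the plus strand of GRCm38.p6, from RefSeq, at chr7:26173159-26173408 for Cyp2b9, chr7:26061245-26061494 for Cyp2b13 and chr7:25897408-25897657 for Cyp2b10. Capitals mark AGGTCA, the hexamer that many nuclear receptors bind.
Cyp2b9: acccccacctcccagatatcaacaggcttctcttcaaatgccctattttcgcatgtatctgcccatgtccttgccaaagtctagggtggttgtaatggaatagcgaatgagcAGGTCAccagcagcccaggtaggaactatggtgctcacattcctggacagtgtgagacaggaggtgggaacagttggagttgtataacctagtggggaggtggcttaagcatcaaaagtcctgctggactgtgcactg
Cyp2b13: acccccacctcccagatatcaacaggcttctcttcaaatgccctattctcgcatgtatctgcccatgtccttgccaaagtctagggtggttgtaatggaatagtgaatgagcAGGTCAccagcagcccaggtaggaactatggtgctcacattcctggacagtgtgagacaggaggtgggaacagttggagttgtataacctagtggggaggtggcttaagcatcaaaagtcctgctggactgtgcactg
Cyp2b10: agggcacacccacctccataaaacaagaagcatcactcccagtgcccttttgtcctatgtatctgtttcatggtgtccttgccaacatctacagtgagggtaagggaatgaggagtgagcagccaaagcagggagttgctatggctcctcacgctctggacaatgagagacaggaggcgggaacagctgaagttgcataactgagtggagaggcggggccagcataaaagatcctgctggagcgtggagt
The Cyp2b9 and Cyp2b13 windows were identical at 248 of 250 bases, and the Cyp2b10 window matched either at 182 of 260 aligned positions, or 70.0%. AGGTCA lay from -138 to -133 in Cyp2b9 and Cyp2b13. It did not occur in the Cyp2b10 window, whose known CAR-responsive enhancer lies farther upstream than these letters reach. The 250 bases before the start of 32851 RefSeq promoters held AGGTCA on either strand in 14.0% of cases.

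Cyp2c55 was the one gene lower in KO at both ages by more than 2-fold. It is the first gene of the Cyp2c cluster on chromosome 19 in mm9 order, and its enzyme, which the gut also makes, oxidises arachidonic acid. Its signal was 0.0914 in KO and 1.05 in WT at 6 weeks, and 0.393 in KO and 0.916 in WT at 3 weeks. Both WT pools were near 1, both KO pools were below them, and the KO pool at 6 weeks was the lowest of the 4. The log2 ratio of KO over WT was -3.52 at 6 weeks and -1.22 at 3 weeks, the last a 2.33-fold lower level. Of the 18870 genes, 12 had a lower ratio at 6 weeks. With normexp background correction, which adds an offset to every spot, the ratio at 6 weeks was -2.80. Because Cyp2c55 is also a gene of the gut, enterocyte markers were read on the same arrays. They summed to 22.7 in KO and 35.7 in WT at 6 weeks, and to 22.8 in KO and 20.8 in WT at 3 weeks, with 5, 5, 6 and 6 of 11 well above background on those arrays. Fabp2, which carries fatty acids in enterocytes, made up most of the sum, at 18.2 in KO and 31.6 in WT at 6 weeks and 19.4 in KO and 17.4 in WT at 3 weeks. Of the 11, Fabp2, Lgals4 and Cdx1 were well above background on all 4 arrays, Sis and Slc5a1 on 3, Krt20 and Rbp2 on the arrays at 3 weeks, and Lct, Cdx2, Cdh17 and Muc2 on none. Their part in the Cyp2c55 values was not tested.

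Cyp2c37, Cyp2c39 and Cyp2c54 were higher in KO than in WT at 6 weeks, on every probe. Cyp2c54 showed 92.4 in KO and 46.9 in WT at 6 weeks on its brightest probe, and 47.3 in KO and 49.1 in WT at 3 weeks. The KO pool at 6 weeks was the high one and the other 3 lay close together, for a ratio of 1.97-fold at 6 weeks (log2 0.98) and 1.04-fold lower at 3 weeks (log2 -0.05). Cyp2c39, which hydroxylates retinoic acid, read 29.9 in KO and 15.9 in WT at 6 weeks, and 10.4 in KO and 13.5 in WT at 3 weeks. KO was highest at 6 weeks and lowest at 3 weeks, with ratios of 1.88-fold higher (log2 0.91) and 1.3-fold lower (log2 -0.37). Cyp2c37, which oxidises arachidonic acid, read 74.3 in KO and 43.6 in WT at 6 weeks, and 34.2 in KO and 42.5 in WT at 3 weeks. Its second probe read 17.4 in KO and 8.85 in WT at 6 weeks, and 6.97 in KO and 9.22 in WT at 3 weeks. Both probes thus put KO highest at 6 weeks and lowest at 3 weeks, with log2 ratios of 0.77 and 0.97 at 6 weeks and of -0.32 and -0.40 at 3 weeks. On their brightest probes these 3 genes were inside 2-fold at 6 weeks, at 1.7-fold to 1.97-fold. Under hepatocyte marker scaling their ratios at 6 weeks were 0.52 for Cyp2c37, 0.66 for Cyp2c39 and 0.73 for Cyp2c54.

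Probes of 1 gene did not give 1 size of change. The 2 further probes of Cyp2c54 share 42 bases, in capitals below, on the minus strand of mm9 at chr19:40144659-40144718 and from chr19:40122119-40144700, where the second crosses an intron.
A_55_P2158547: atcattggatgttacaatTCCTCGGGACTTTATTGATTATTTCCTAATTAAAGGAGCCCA
A_52_P154580: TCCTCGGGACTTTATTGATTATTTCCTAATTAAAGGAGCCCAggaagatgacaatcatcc
A_55_P2158547 read 24.4 in KO and 18.3 in WT at 6 weeks, and 13.1 in KO and 14.7 in WT at 3 weeks, a ratio of 1.33-fold at 6 weeks. A_52_P154580 read 6.11 in KO and 1.89 in WT at 6 weeks, and 2.6 in KO and 2.33 in WT at 3 weeks, a ratio of 3.23-fold at 6 weeks. All 3 Cyp2c54 probes were higher in KO at 6 weeks, over a range of log2 ratios of 0.41 to 1.69. Cyp2c38 differed more between its probes. Its brightest probe read 45.7 in KO and 43.3 in WT at 6 weeks, and 27.4 in KO and 35.2 in WT at 3 weeks, log2 ratios of 0.08 and -0.36. Its other probe, 3′ of the first on the transcript, read 3.83 in KO and 0.816 in WT at 6 weeks, and 0.261 in KO and 0.611 in WT at 3 weeks. On that probe KO was 4.7-fold higher at 6 weeks and 2.35-fold lower at 3 weeks, where the brightest probe stayed inside 2-fold at both ages. Counted over probes, 2 of 14 were at least 2-fold higher and 1 lower at 6 weeks, and none higher and 5 lower at 3 weeks. The share over all probes is not given here. Counted by gene on brightest probes, 6.49% of all genes were higher and 4.54% lower at 6 weeks, and 2.86% and 2.9% at 3 weeks.

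Near-identical relatives can share signal in this subfamily. Probes were compared only with each other, and their match to the transcripts of other genes was not checked. The Cyp2c29 probe and the second Cyp2c37 probe, which start at bases 1230 and 1242 of their transcripts as the files give them, are the closest pair between members, with 27 of 31 aligned bases identical and the mismatches in capitals below.
Cyp2c29: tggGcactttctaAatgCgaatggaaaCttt
Cyp2c37: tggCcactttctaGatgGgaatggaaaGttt
The 2 probes gave different patterns. Cyp2c29, an abundant cytochrome that Cyp2b10 inducers also raise, was printed in 10 spots and averaged 78.0 ± 4.59 in KO (SD over 9 spots) and 78.1 ± 3.76 in WT (SD over 10 spots) at 6 weeks. At 3 weeks it averaged 53.1 ± 2.38 in KO and 60.9 ± 2.66 in WT (SD over 10 spots each). The spots of KO and WT overlapped in full at 6 weeks, and at 3 weeks they ranged from 50.5 to 57.3 in KO and from 57.5 to 65.8 in WT, so that they did not overlap; these spots repeat 1 pool and not the animals. The log2 ratios of Cyp2c29 were 0.0 at 6 weeks and -0.20 at 3 weeks. Cyp2c70, which makes the muricholic acids of mouse bile, was the flattest, with 75.6 in KO and 64.3 in WT at 6 weeks and 70.0 in KO and 73.0 in WT at 3 weeks. Its log2 ratios were 0.23 and -0.06, and the first was -0.02 under hepatocyte marker scaling.

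**Figure D2:**
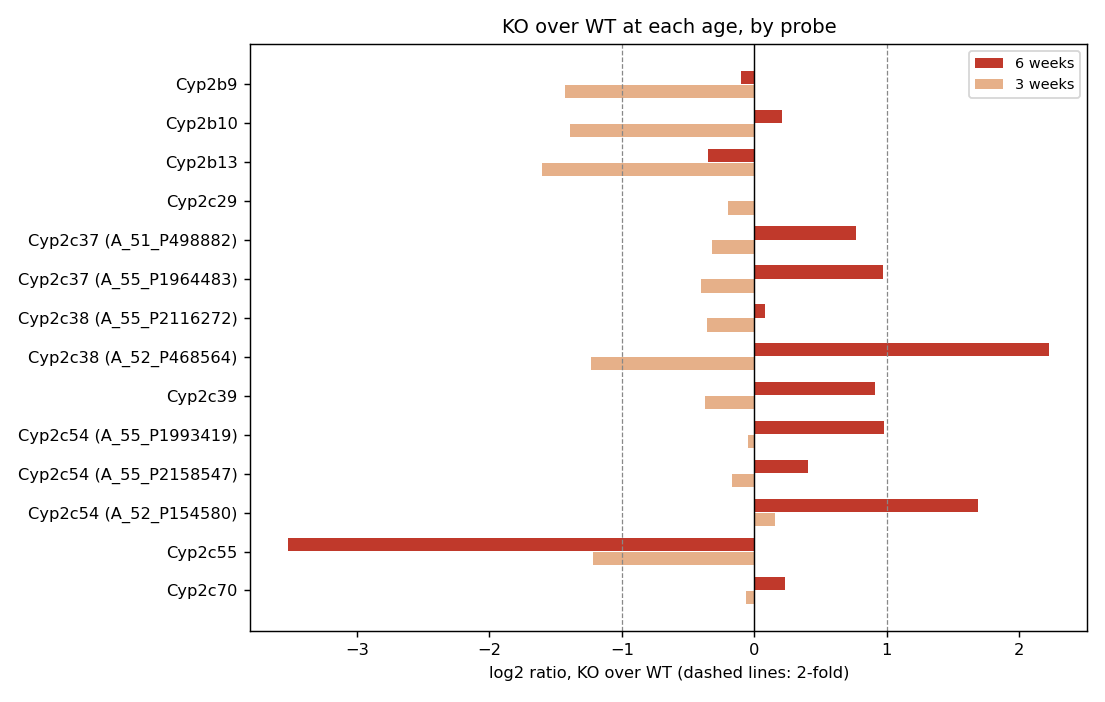
Log2 ratio of KO over WT at 6 weeks and at 3 weeks for each of the 14 probes, with dashed lines at 2-fold. At 3 weeks 13 of the 14 bars lie below 0 and A_52_P154580 of Cyp2c54 lies above it, at 0.16.

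The ages differed by more in KO than in WT for most of these genes. Between 3 and 6 weeks in KO, 5 of the 10 genes were at least 2-fold higher at 6 weeks (6.02% of 21970 genes were) and 1 was lower (6.26%). In WT, 1 gene was at least 2-fold higher at 6 weeks (3.64% of 21166 genes) and none was lower (5.85%). The 5 in KO were Cyp2b9, Cyp2b10, Cyp2b13, Cyp2c37 and Cyp2c39, and the 1 in WT was Cyp2b13. Cyp2b10 was 4.02-fold higher at 6 weeks in KO and 1.33-fold higher in WT, Cyp2b9 was 3.97-fold and 1.58-fold higher in KO and WT, and Cyp2b13 5.79-fold and 2.43-fold. Cyp2c54 missed the count in KO at 1.95-fold, and Cyp2c37 entered it at 2.17-fold. The log2 change of Cyp2c37 was 0.91 after quantile normalization and 0.92 with hepatocyte marker scaling, which left 4 genes in the count, while the mean of all probes gave 7. Cyp2c55 went the other way in KO, 4.3-fold lower at 6 weeks, and was 1.15-fold higher in WT. The median log2 change of the 10 genes was 1.04 in KO, against 0.05 for all genes, and 0.27 in WT, against 0.01. These ratios use the same 4 arrays as the ratios of KO over WT and are no separate support for them.

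**Figure D3:**
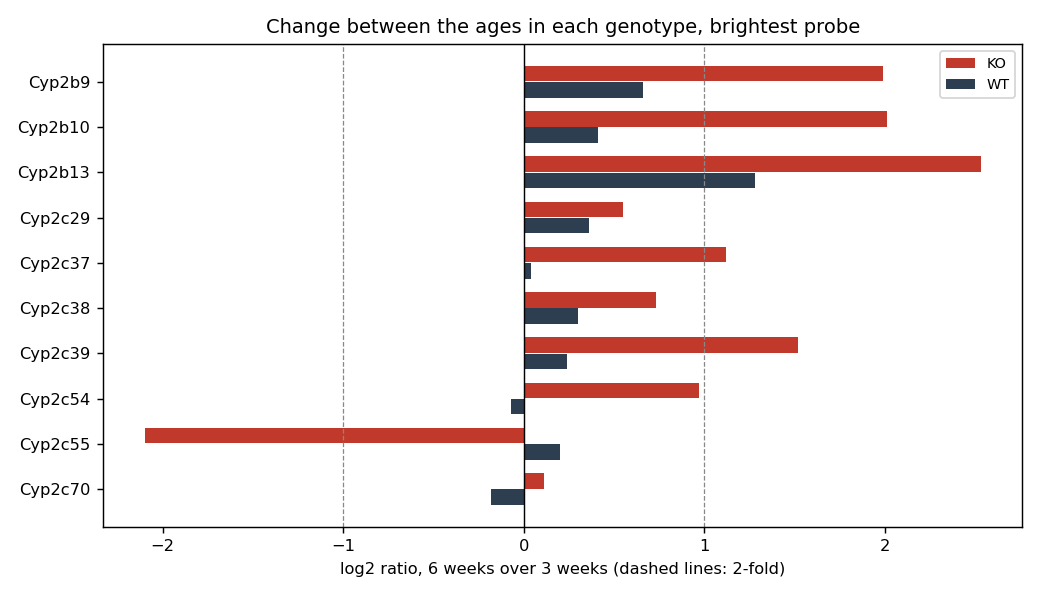
Log2 ratio of 6 weeks over 3 weeks in KO and in WT for the brightest probe of each gene, with dashed lines at 2-fold. The KO bar is past 2-fold for 6 genes, upward for 5 and downward for Cyp2c55 at -2.10, and the WT bar for Cyp2b13 alone at 1.28.

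The ratio of KO over WT was higher at 6 weeks than at 3 weeks for 9 of the 10 genes, as for 57.0% of all genes, and lower for Cyp2c55. The log2 difference was 1.60 for Cyp2b10, 1.33 for Cyp2b9, 1.28 for Cyp2c39, 1.25 for Cyp2b13, 1.08 for Cyp2c37 and 1.03 for Cyp2c54. It was 0.44 for Cyp2c38, 0.29 for Cyp2c70 and 0.19 for Cyp2c29, the last of which turned to -0.02 after quantile normalization. At the 4-fold limit used for this difference, none of the 10 genes was higher (0.837% of 18870 genes) and 1, Cyp2c55 at -2.30, was lower (0.684%). With normexp correction no gene passed that limit. In 6 of the 10 genes the ratio was above 0 at 6 weeks and below 0 at 3 weeks, against 26.3% of all genes, 15 of 33 other CAR and PXR targets (45.5%), 10 of 20 hepatocyte markers and 6 of 12 periportal genes. Of the 6, Cyp2b10 and Cyp2c38 were below 0 at 6 weeks after quantile normalization or hepatocyte marker scaling, and Cyp2c70 after the second of these.

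The order of the genes along the chromosomes was set beside these values. On chromosome 19, Cyp2c37, Cyp2c54 and Cyp2c50 are neighbours, and Cyp2c50 read 99.3 in KO and 55.6 in WT at 6 weeks, and 53.6 in KO and 58.9 in WT at 3 weeks. Its log2 ratios, 0.84 and -0.14, were like those of its 2 neighbours, but its probe matches the brightest Cyp2c37 probe at 35 of 39 aligned bases, and cross-hybridisation was not tested. Cyp2c67 and Cyp2c68, between Cyp2c39 and Cyp2c37, went the other way at 6 weeks. Cyp2c67 read 64.3 in KO and 116.0 in WT at 6 weeks and 48.2 in KO and 55.0 in WT at 3 weeks, log2 ratios of -0.86 and -0.19. Cyp2c68 had ratios of -0.70 and -0.17, with a probe identical to that of Cyp2c67 at 53 of 56 aligned bases. Cyp2c23 (Cyp2c44 in the files), an epoxygenase some way from the cluster, had ratios of -0.81 and -0.04. Of the 8 further Cyp2b and Cyp2c genes on the array, Cyp2c23, Cyp2c50, Cyp2c67 and Cyp2c68 were measured on all arrays and were inside 2-fold at both ages. Cyp2b19, Cyp2c65 and Cyp2c66 were dim, so that their ratios are bounds that do not settle whether 2-fold was passed, with Cyp2b19 at least 1.89-fold, Cyp2c66 at least 1.59-fold and Cyp2c65 at least 1.24-fold lower in KO at 6 weeks, and Cyp2b23 was not well above background on any array.

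**Figure D4:**
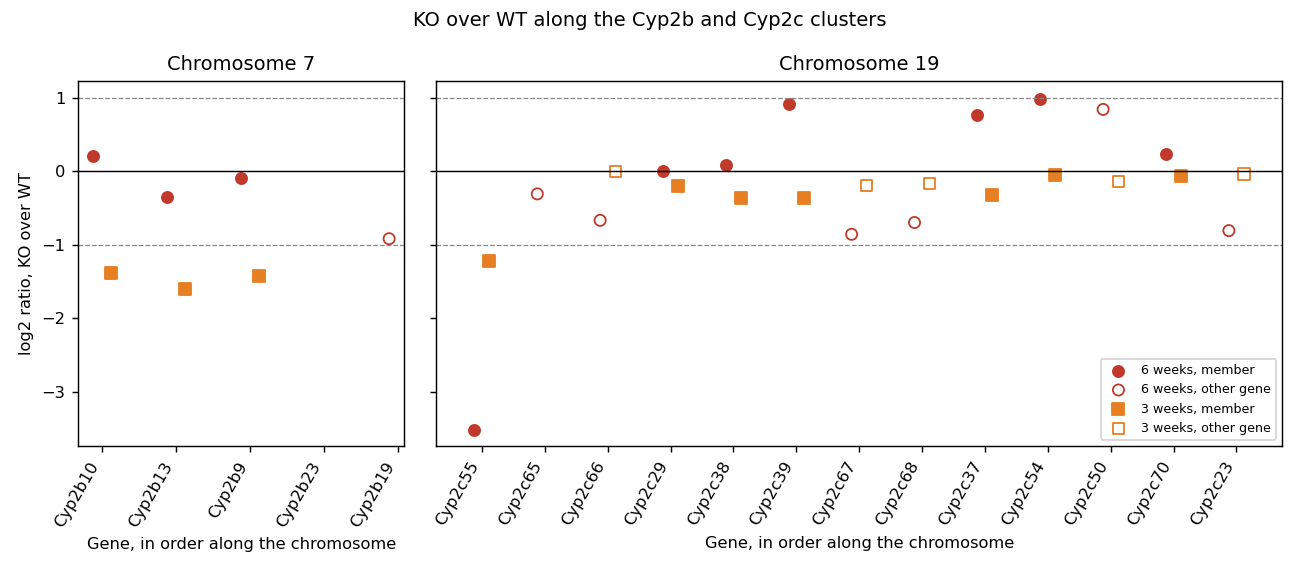
Log2 ratio of KO over WT at 6 and 3 weeks for the Cyp2b genes of chromosome 7 and the Cyp2c genes of chromosome 19, in order along each chromosome and not to scale of distance, with filled points for the 10 genes and open points for relatives. Genes with no point at an age were not well above background on either array of it. The open points of Cyp2b19, Cyp2c65 and Cyp2c66 at 6 weeks are bounds, and that of Cyp2c66 at 3 weeks was set to 0 by rule. Cyp2c67 at -0.86 and Cyp2c68 at -0.70 lie below 0 at 6 weeks between Cyp2c39 at 0.91 and Cyp2c37 at 0.77.

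The receptors themselves were read next. Nr1i3, which encodes CAR, was at 22.4 in KO and 10.9 in WT at 6 weeks, and at 7.87 in KO and 9.11 in WT at 3 weeks. It was the highest in KO at 6 weeks and the lowest in KO at 3 weeks, with log2 ratios of 1.04 and -0.21. Nr1i2 (PXR) had ratios of 0.17 and 0.19, and the partner Rxra of 0.35 and 0.17. Por read 75.2 in KO and 37.9 in WT at 6 weeks, and 52.5 in KO and 46.5 in WT at 3 weeks, log2 ratios of 0.99 and 0.17, and Alas1 had ratios of 0.45 and 0.12. Of 27 receptors and partners, 2 were at least 2-fold higher at 6 weeks (6.49% of all genes), Nr1i3 and Ppargc1a at 1.25. At that age 1 was lower, Hsp90aa1 at -1.37 (4.54% of all genes). At 3 weeks 1 was higher, Egfr at 1.12 (2.86% of all genes), and none lower (2.9%). Such counts are close to the shares over all genes. Nr1i3 was only just past 2-fold, and its ratio under other scalings is not given here. Hsp90aa1 encodes a chaperone that holds CAR in the cytoplasm, and EGFR signalling is known to keep CAR inactive. Of 14 genes of electron supply and heme synthesis none was past 2-fold at either age.

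Other genes known to respond to CAR and PXR were lower in KO at 3 weeks in most cases, by less than the Cyp2b genes. Of 33 such genes, 30 were below 0 at 3 weeks (48.0% of all genes) and 2 above it (49.1%), with a median of -0.35 against 0.0 for all genes. Only 1 was at least 2-fold lower at that age, Akr1b7 at -1.16 (2.9% of all genes), and none higher (2.86%). At 6 weeks 4 were at least 2-fold higher (6.49% of all genes), among them Tsku at 1.52 and Sult1d1 at 1.19. At the same age 2 were lower (4.54% of all genes), among them Gstm3 at -1.15, and the median was 0.06 against 0.05. All 8 Cyp3a genes were below 0 at 3 weeks and 3 of them at least 2-fold lower at each age (4.54% of all genes at 6 weeks and 2.9% at 3 weeks). These were Cyp3a44, Cyp3a41b and Cyp3a16, at -3.48, -2.28 and -1.13 at 6 weeks and -2.05, -1.63 and -1.0 at 3 weeks. The same 3 stand in the list of female-biased liver genes, which also shares Cyp2a4, Sult2a1 and Sult3a1 with the CAR and PXR list, as the Cyp3a list shares Cyp3a11, Cyp3a13 and Cyp3a25 with it.

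Cyp2b9 and Cyp2b13 belong to the adult female pattern, so sex-biased genes were described too. The 13 female-biased genes outside the 10 had a median of -1.01 at 6 weeks, with 7 past 2-fold downward and 1 upward. At 3 weeks their median was -1.0, with 7 downward and none upward. Over all genes, 4.54% were past 2-fold downward and 6.49% upward at 6 weeks, and 2.9% and 2.86% at 3 weeks. Hao2, a hydroxy acid oxidase, had log2 ratios of -2.94 and -1.45, and Prom1 of -2.89 and -1.60. The 13 male-biased genes had a median of 0.28 at 6 weeks, with 3 of them past 2-fold upward and 1 downward, and of 0.77 at 3 weeks, with 5 upward and none downward. Cyp4a12a and Cyp4a12b, male-predominant fatty acid hydroxylases, were higher in KO at both ages, at 2.17 and 2.59 at 6 weeks and 1.22 and 2.07 at 3 weeks. Slco1a1, an organic anion transporter, and Mup20, a urinary protein, were higher at 3 weeks, at 3.40 and 2.13, and were at 0.28 and 0.06 at 6 weeks. Sex-chromosome transcripts were not read here. The genes given therefore do not separate a difference in sex between the pools from an effect of the knockout, and this was not tested.

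**Figure D5:**
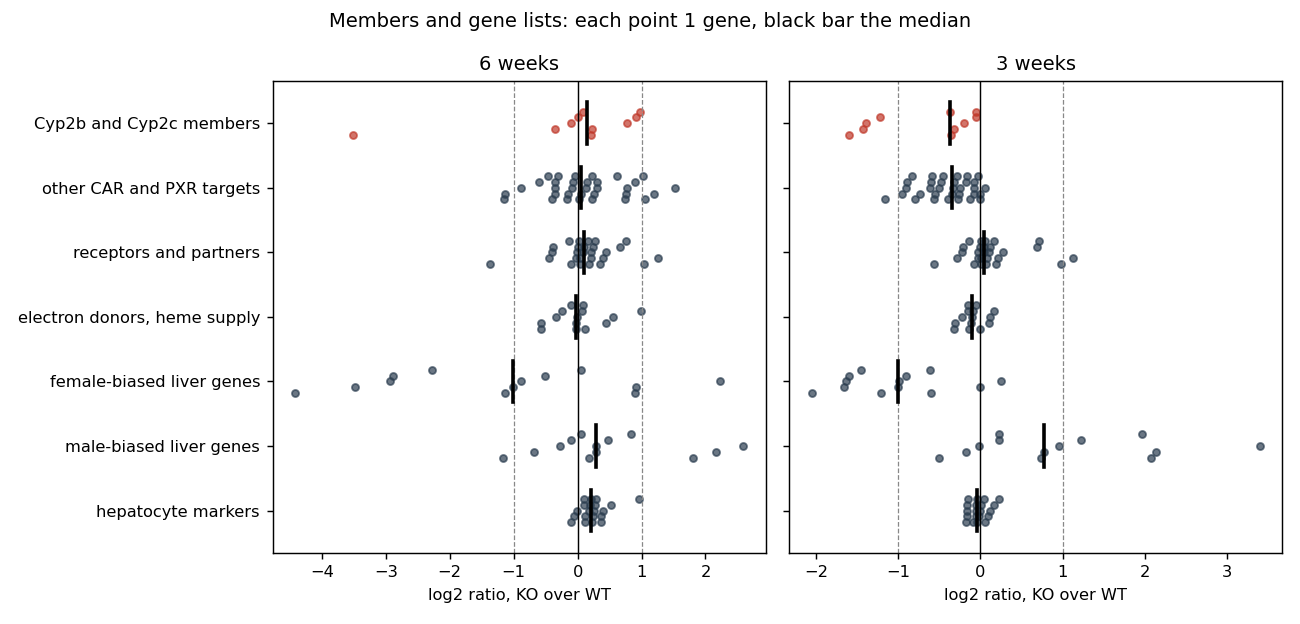
Log2 ratio of KO over WT at 6 weeks and at 3 weeks for the 10 genes and 6 gene lists, 1 point per gene and a black bar at each median, with the dashed lines at 2-fold. At 3 weeks the medians of the 10 genes, -0.37, and of other CAR and PXR targets, -0.35, lie below 0, that of female-biased genes at -1.0 and that of male-biased genes at 0.77.

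Acute phase genes are raised by inflammation in the liver, which lowers many cytochromes. Their median log2 ratio was 0.40 at 6 weeks, with 17 of 22 above 0 and 5 below it. For all genes the median was 0.05, with 55.5% above 0 and 44.3% below it. Of the 22, 6 were at least 2-fold higher (6.49% of all genes) and none lower (4.54%). Among the 6 were Saa2 at 4.48, Saa1 at 4.44, Lcn2 at 3.14 and Orm3 at 2.90. At 3 weeks none was higher (2.86% of all genes) and 2 were lower (2.9%). Macrophage markers summed to 49.3 in KO and 87.9 in WT at 6 weeks and to 90.6 in KO and 98.5 in WT at 3 weeks. Pericentral genes mark the zone where most cytochromes are made. Of 15, 3 were at least 2-fold higher at 6 weeks (6.49% of all genes), Oat at 1.43, Slc1a2 at 1.16 and Rhbg at 1.08. At 3 weeks none was (2.86% of all genes). Of 12 periportal genes none was past 2-fold. The part of any of these lists in the Cyp2b and Cyp2c values was not tested, and fewer cells of a type and less RNA per cell cannot be told apart in bulk liver.

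The genes most like each member over the 4 arrays were found among 14159 named genes, by the root mean square difference of log2 values after each gene's own mean was removed. The 5 nearest to Cyp2b10 were Olfr1431 at 0.124, Sucnr1 at 0.164, Tex12 at 0.175, Abcb1a at 0.177 and Cyp2a4 at 0.18. Those nearest to Cyp2b9 were Tex12, Sucnr1, Crmp1, Olfr1431 and Cyp2a4, at 0.164 to 0.207, while Cyp2b9 and Cyp2b10 differed from each other by 0.125. Olfr1431, Tex12 and Crmp1 were dim, with signals of 0.0185, 0.0183 and 0.0285 in KO at 3 weeks, where Cyp2b10 read 15.2. Cyp2a4, a testosterone hydroxylase of female liver, read 149.0 in KO and 144.0 in WT at 6 weeks, and 47.1 in KO and 88.4 in WT at 3 weeks. Abcb1a, a drug efflux pump, read 1.05 in KO and 0.878 in WT at 6 weeks, and 0.314 in KO and 0.583 in WT at 3 weeks. Both were lowest in KO at 3 weeks, which follows from their choice by likeness to Cyp2b10 and is no separate support. The genes nearest to Cyp2c55 were Sult2a3 at 0.264, Hao2 at 0.273, Fam25c at 0.395, Cyp3a44 at 0.408 and Ankle1 at 0.475. Sult2a3 read 0.315 in KO and 2.33 in WT at 6 weeks, and 1.37 in KO and 2.71 in WT at 3 weeks. That it was low in KO at both ages follows from its choice by likeness to Cyp2c55. For Cyp2c70, whose profile was nearly flat, Serpina1d, Mrpl13, Nfrkb, Igsf9b and Mark2 lay within 0.0115. Among the members themselves, Cyp2c29 and the brightest Cyp2c38 probe were the closest at 0.0712, and Cyp2c39 and Cyp2c55 the farthest apart at 1.84.

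Upstream of the Cyp2c genes, AGGTCA lay from -154 to -149 in Cyp2c29, from -25 to -20 in the first of 2 windows of Cyp2c39 and from -74 to -69 in Cyp2c70. AGTTCA, a variant that receptors of the same family bind and that 11.8% of promoter windows hold, lay from -225 to -220 in the second window of Cyp2c39. The first Cyp2c39 window is at chr19:39347096-39347345 and the second at chr19:39510572-39510821 of GRCm38.p6. The Cyp2c38 window lies between them. Which of the 2 starts the Cyp2c39 transcript read here was not tested. CAAAGTCCA, a motif of the hepatocyte factor HNF4A found in 0.384% of windows, lay from -64 to -56 in Cyp2c70. TTCNNNGAA, the motif of STAT5, found in 7.02% of windows, lay in none of the 10 windows of the 9 members with a RefSeq promoter. Both strands were searched, no matches overlapped, and a match or its absence here describes the letters alone. The window of Cyp2c55, the lowest of the 10 genes at 6 weeks by its ratio, held none of the 4 motifs, and it is given for the plus strand of GRCm38.p6 at chr19:39006769-39007018.
Cyp2c55: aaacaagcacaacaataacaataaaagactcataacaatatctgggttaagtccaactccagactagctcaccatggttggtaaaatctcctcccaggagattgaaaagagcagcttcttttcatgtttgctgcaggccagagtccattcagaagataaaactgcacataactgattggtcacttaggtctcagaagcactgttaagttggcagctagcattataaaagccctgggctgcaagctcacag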

How the data were processed

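Liver RNA of 4 groups was labelled with Cy3 and hybridised to 4 Agilent arrays on 1 slide, per the labels and the file headers. The authors deposited scanner intensity values which per the submitters' processing notes come from Agilent Feature Extraction 11.5.1.1, with background subtracted and no scaling between arrays, per the file headers. Flags for outlier and well-above-background spots are other deposited values of 0 or 1. The authors' value table held the same intensity over the 75th percentile (quotient of both between 0.999825 and 0.999979), so neither its scale nor its centring nor its direction is unknown. The medians of its columns were 0.0798 in KO and 0.0778 in WT at 6 weeks and 0.0815 in KO and 0.0797 in WT at 3 weeks. Probe positions are those of mm9.

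Each deposited intensity was divided by the 75th percentile of all non-control spots of that array, and log2 was taken. From 189 to 252 outlier spots per array were left out, spots of a probe were averaged, and 174 probes that lacked a value on some array were dropped. Of 39429 probes, 27508 were named by accession, 3544 by symbol and 404 by synonym through RefSeq, and 7973 kept the file's name. Comparisons took in genes well above background on 1 or both of the 2 arrays. With only 1, the ratio is a bound, taken against the dim gene's own signal or the lowest signal well above background there, whichever is higher. A bound whose sign turned in this way was set to 0, as for Cyp2c66 and Sult3a1 at 3 weeks. For the difference between ages a gene had to be well above background throughout. The spot SD came from 279 to 295 probes with 10 spots each.

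The members, gene lists and the naming rule were chosen with earlier results of these data known. All members and their relatives, 5 receptor and supply genes, up to 4 genes per further list by largest ratio past 2-fold and well above background on both arrays of that age, and the 5 nearest profiles of 4 members are named; enterocyte markers beside Cyp2c55 were named after their values were seen. No test was possible with 1 array per group. Counting was tested on simulated data. Python 3.11.15, pandas 2.3.3 and Biopython 1.88 were used, also for quantile normalization. The normexp alternative was made with limma 3.58.1 in R 4.3.3.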

Additional observations from a re-analysis of the deposited data

Results flagged for a closer look

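The ratio of KO over WT lay above 0 at 6 weeks and below 0 at 3 weeks, in each case by more than the spread between spots, for 6 probes of 5 of the genes. On brightest probes this held for 3 of the 10 genes, against 10.2% of 18870 genes and 11 of 32 other CAR and PXR targets (34.4%). With 1 array per group this difference between the ages was not tested. On the log2 scale the ratio at 6 weeks exceeded that at 3 weeks by 1.60 for Cyp2b10, by 1.08 and 1.38 for the 2 probes of Cyp2c37, by 3.46 for probe A_52_P468564 of Cyp2c38, by 1.28 for Cyp2c39 and by 0.58 for probe A_55_P2158547 of Cyp2c54. Among the other named genes it did so by 0.97 for Cyp2c50, 1.25 for Nr1i3, 1.85 for Tsku, 3.76 for Orm3, 1.25 for Tex12, 1.60 for Sucnr1, 1.42 for Olfr1431 and 1.15 for Abcb1a, and the difference was -0.95 for Fabp2, which lay below 0 at 6 weeks and above 0 at 3 weeks, as 7.6% of all genes did. Of these, Tex12, Sucnr1, Olfr1431 and Abcb1a were named for profiles like that of Cyp2b10, so their differences are no separate support. Tex12 and Olfr1431 were also dim, at 0.0183 and 0.0185 in KO at 3 weeks. For Cyp2b10 the ratio at 6 weeks was -0.01 after quantile normalization and -0.04 with hepatocyte marker scaling, so the 2 ages were not opposite there. The brightest Cyp2c38 probe, with a difference of 0.44, did not meet this condition.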

How the results depend on the processing

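No paired analysis was possible because each group has 1 array. The 4 genes lower in KO at 3 weeks and Cyp2c55 at 6 weeks stayed past 2-fold under every normalization tried. Hepatocyte marker scaling shifted the median of all genes to -0.20 at 6 weeks, to -0.14 for age in KO and to -0.18 for the difference between ages, and leaving out the filter shifted it to 0.14, 0.15 and 0.15. The median of the 10 genes at 6 weeks was -0.06 after quantile normalization and -0.11 with hepatocyte marker scaling, for age in KO 0.82 and 0.84, and for the difference between ages 0.85 and 0.81. With the mean of all probes, 2 genes were at least 2-fold higher at 6 weeks, and the medians were -0.58 at 3 weeks, 1.37 for age in KO and 1.24 for the difference. Counting a gene by any of its probes, chosen after seeing the data, gave 2 higher at 6 weeks and 1 higher in the difference between ages. Normexp correction left 0 genes 4-fold lower in that difference. At 1.5-fold, 3 genes were higher at 6 weeks and 2 for age in WT; at 3-fold, 1 was lower at 3 weeks, 3 were higher for age in KO and 0 for age in WT. For the difference between ages, the lower alternative limit gave 4 higher genes and the 9-fold limit 0 lower ones. The share of all genes at these other limits, with the mean of all probes or by any probe, is not given here. These counts show how the 10 genes depend on the setting, and not whether more of them changed than of all genes. Single ratios near 0 turned sign for Cyp2b10 and Cyp2c38 at 6 weeks, for Cyp2c70 at 6 weeks and for age in KO, and for Cyp2c29 in the difference, under quantile normalization or hepatocyte marker scaling. The causes were not tested. Only 1 array per group limits every value, and differences between pools of animals are not measured.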
